A study of Mus musculus with 6 samples.

Results

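The genes of NF-kB subunits and their feedback inhibitors were examined in immortalized cardiosphere-derived cells (iCDCs in the labels, iECDCs in the study) of the mouse, as control cells and after induction with 5-azacytidine. The members were the rows of the deposited table whose gene name was Nfkb1, Nfkb2, Rel, Rela or Relb (the 5 subunits) or Nfkbia, Nfkbie, Nfkbiz, Bcl3 or Tnfaip3 (the 5 inhibitors). These were 10 of 54532 genes, and all 10 had enough reads to be tested. RNA sequencing covered 3 libraries labelled control, from iCDCs of the strain C57BL/6 at passage 30, and in 3 libraries labelled induced, from iCDCs at the same passage that had received 5-aza. According to the labels, exposure to 10 µM lasted 3 days and was followed by 4 weeks in IMDM with 2% FBS, where the methods of the study describe another medium and a shorter culture. Both groups carry the lentiviral human telomerase gene (hTERT) and come from one puromycin-selected line, which the methods derive from ventricular epicardium of 6-week-old animals. The methods name explant medium, which is IMDM with more serum, for routine passage of the line, but the sources used here do not say whether the control cells that were sequenced grew in it, nor for what time. Drug, serum and time in culture cannot be told apart. The labels speak of separate samples without naming separate cultures, and the p-values then measure only the spread between these samples.

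NF-kB is a family of dimeric transcription factors that carries signals from cytokine and pattern recognition receptors to genes of inflammation and survival. In a resting cell the dimers are held in the cytoplasm by IκB proteins, until the IκB kinase marks these for degradation. The released dimers then switch on, among others, the genes of their own inhibitors, which closes a negative feedback loop. In cells of the heart the pathway is best known from ischemia, infarction and inflammation.

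Total counts were 19041133 to 19823369 per library, and 0 reads in a library allow a level of up to 0.151 to 0.158 CPM (reads scaled to a common library size, with 3 counts taken as the limit and counting error only). Log2 CPM across genes correlated at 0.992 to 0.994 between libraries of one group and at 0.924 to 0.927 between groups, genes not being independent replicates. Of 12 markers of cardiosphere and epicardial cells, all were detected in both groups and all passed the edgeR test, 6 higher and 6 lower. The log2 difference was 1.89 for Upk3b, 1.49 for Tcf21, 1.34 for Wt1, 0.59 for Gata4, 0.54 for Thy1 and 0.12 for Eng. It was -0.33 for Tbx18, -0.36 for Col1a1, -0.57 for Ly6a, -0.64 for Vim, -0.73 for Pdgfra and -1.52 for Cd44. The summed level of the 12 markers was 12640 to 13080 CPM in control and 10230 to 10850 CPM in induced libraries, without overlap. Most of this sum came from Col1a1 (7440 and 5786 CPM, control mean first) and Vim (4068 and 2607 CPM), so that it says little about the other markers. Of 15 leukocyte markers, 6 had 0 reads in every library, including the defining genes Ptprc, Itgam, Tyrobp and Cd3e. The summed level of these 15 was 70.4 to 78.8 CPM in control and 93.1 to 103.6 CPM in induced libraries, without overlap. Of the 5 that could be tested, Cd68 (1.96 and 29.1 CPM, control mean first), Lyz2 (3.76 and 14.6 CPM) and Fcer1g (2 and 187 reads in all) were called higher, Csf1r (22.6 and 10.9 CPM) was called lower, and Cd14 (44.7 and 40.7 CPM) did not pass the test. The part of the marker genes in the results below was not tested. The 10 endothelial markers summed to 1.80 to 2.34 CPM in control and 1.63 to 3.20 CPM in induced libraries, with Tie1 and Cldn5 at 0 reads.

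The comparison asked how the transcripts of the subunits and of their inhibitors differed between induced and control cells. All 5 genes grouped as inhibitors were lower in induced cells. Of these, Nfkbiz and Bcl3 encode nuclear IκB proteins that can also help to activate targets, so that the group does not stand for repression alone. Nfkbiz decreased by 67.9%, Nfkbia decreased by 42.2%, Tnfaip3 decreased by 38.3%, Bcl3 decreased by 31.5% and Nfkbie decreased by 30.6%. Among the subunits, Nfkb2 decreased by 16.4% and Rela decreased by 10.5%, Rel rose by 32.4%, and Nfkb1 and Relb did not pass the test. The calls on Rela and Rel were each lost under some of the alternative settings given below. Past an adjusted p of 0.05 (edgeR, quasi-likelihood, Benjamini-Hochberg over 14246 genes) were 8 of the 10 members, 7 lower and 1 higher. Over all genes tested 64.8% were past it, 32.2% lower and 32.6% higher, so that a call alone is common in this comparison, and the median log2 fold change of all genes was -0.01. The induced libraries all lay below the control libraries for 8 members (the inhibitors, Nfkb1, Nfkb2 and Rela), as they did for 34.5% of all genes tested. Groups that did not overlap, in either direction, were found for 68.6% of genes. The median was -0.70 over the 5 inhibitors and -0.11 over the 5 subunits. A call at a fall of at least 1.5-fold, which 15.0% of all genes tested had, was met by Nfkbiz, Nfkbia and Tnfaip3. In bulk RNA, fewer cells that express a gene and less of its RNA per cell cannot be told apart.

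Nfkbiz encodes IκBζ, a nuclear IκB protein that works as a cofactor of NF-kB at secondary response genes such as Il6 and Lcn2. The gene (ENSMUSG00000035356, mm10 chromosome 16, 55811375 to 55838899, minus strand) had 38.9, 34.2 and 40.7 CPM in control libraries and 12.5, 13.1 and 10.9 CPM in induced libraries. The highest induced library was far below the lowest control library. The level fell 3.11-fold, from 37.9 ± 3.32 to 12.2 ± 1.16 CPM as mean ± SD (n = 3; log2 difference -1.64 ± 0.09 SE, edgeR adjusted p 1.45e-11).

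Nfkbia encodes IκBα, the inhibitor that retains dimers of RelA and p50 and is itself remade soon after activation. The gene (ENSMUSG00000021025, chromosome 12, 55489410 to 55492647, minus strand) had 52.9, 52.2 and 49.4 CPM in control libraries and 32.3, 26.8 and 30.2 CPM in induced libraries, with no overlap. It fell from 51.5 ± 1.85 to 29.8 ± 2.80 CPM as mean ± SD (n = 3; log2 difference -0.79 ± 0.07 SE, edgeR adjusted p 9.51e-09). Nfkbie, which encodes the related IκBε, was at a lower level and more variable. The gene (ENSMUSG00000023947, chromosome 17, 45555703 to 45563169, plus strand) had 17.7, 14.6 and 15.4 CPM in control libraries and 11.6, 9.05 and 12.5 CPM in induced libraries. The groups did not overlap, and the lowest value was that of induced replicate 2, without which the log2 fold change was -0.40 in place of -0.53 (SE 0.12, edgeR adjusted p 0.000695).

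Tnfaip3 encodes A20, a ubiquitin-editing enzyme that shuts off signaling upstream of the IκB kinase. The gene (ENSMUSG00000019850, chromosome 10, 19000910 to 19015657, minus strand) had 17.94, 19.3 and 17.98 CPM in control libraries and 11.6, 11.5 and 11.0 CPM in induced libraries. The induced libraries lay within 1 CPM of each other and well below the controls (log2 difference -0.70 ± 0.09 SE, edgeR adjusted p 1.65e-06). Bcl3 encodes a nuclear IκB protein that binds dimers of p50 or p52 and can activate or repress their targets. The gene (ENSMUSG00000053175, chromosome 7, 19808462 to 19822770, minus strand) had 59.6, 57.4 and 57.3 CPM in control libraries and 43.9, 36.8 and 38.8 CPM in induced libraries. The groups did not overlap, and the log2 fold change was -0.54 (SE 0.06, edgeR adjusted p 5.44e-07). In GENCODE M21, 6.51% of the exon bases of Bcl3 are shared with the antisense gene Gm16175, which had 1 read in control and 4 reads in induced cells.

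**Figure D1:**
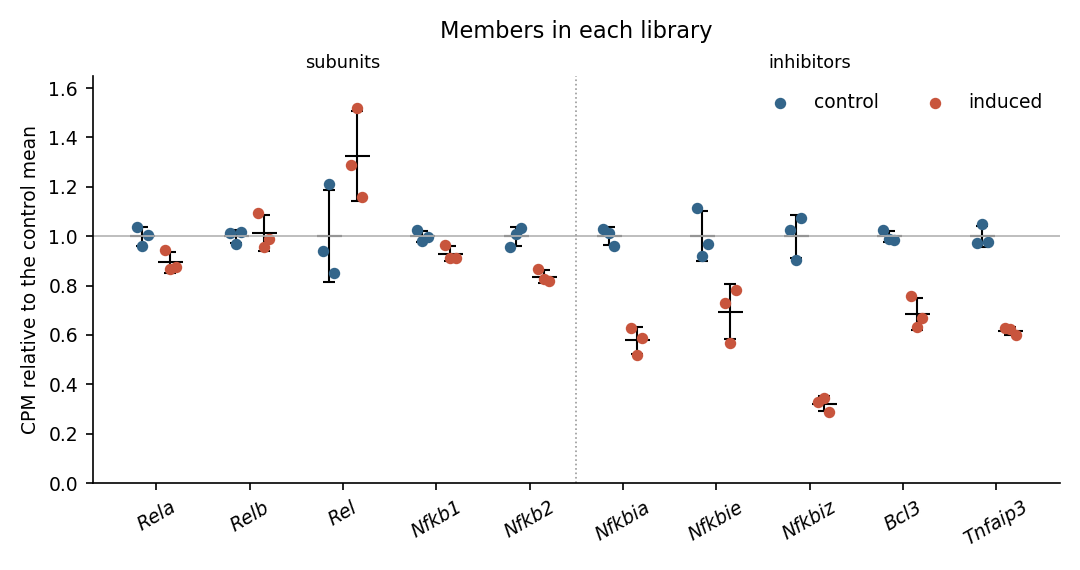
Level of each of the 10 genes in each library, as TMM-scaled CPM divided by the mean of the control libraries (vertical axis, linear, from 0). Points are libraries, blue for control and red for induced; black marks are the mean ± SD of 3 libraries. The induced libraries of the 5 inhibitors lie below all control libraries, with Nfkbiz lowest, while those of Relb and Rel overlap with the controls.

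The subunits fall into those with a transactivation domain (RelA, RelB and c-Rel) and the precursors p105 and p100, which are processed to p50 and p52. Rela, the subunit of the classical dimer, is on chromosome 19 (ENSMUSG00000024927, 5637483 to 5648130, plus strand). It had 170.1, 157.4 and 165 CPM in control libraries and 154.9, 142.2 and 143.7 CPM in induced libraries. The groups were separated by less than 3 CPM, and the difference was small (log2 difference -0.16 ± 0.05 SE, edgeR adjusted p 0.0119). The call on Rela was lost without control replicate 1 (adjusted p 0.0730), control replicate 3 (0.0517) or induced replicate 3 (0.0595). Relb, the transactivating partner of p52 in the noncanonical pathway (ENSMUSG00000002983, chromosome 7, 19606217 to 19629438, minus strand), had 40.4, 38.7 and 40.6 CPM in control and 43.7, 38.1 and 39.5 CPM in induced libraries. The groups overlapped, and the 95% interval of the change ran from a fall by 7.7% to a rise by 11.1% (log2 difference 0.02, edgeR adjusted p 0.815).

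Rel encodes c-Rel, which is best known from lymphocytes. The gene (ENSMUSG00000020275, chromosome 11, 23736847 to 23770970, minus strand) had 5.27, 6.78 and 4.76 CPM in control libraries and 7.23, 8.52 and 6.50 CPM in induced libraries. It was the least abundant member, and control replicate 2 lay above induced replicate 3. The log2 fold change was 0.40 (SE 0.16, edgeR adjusted p 0.0296; range over its alternatives 0.00819 to 0.124). The call was lost in DESeq2 (adjusted p 0.0792) and without control replicate 1 (0.0850), control replicate 3 (0.124), induced replicate 1 (0.0502) or induced replicate 2 (0.112).

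Nfkb1 encodes p105 (ENSMUSG00000028163, chromosome 3, 135584655 to 135691547, minus strand). It had 86.7, 83.1 and 84.3 CPM in control libraries and 81.6, 77.2 and 77.1 CPM in induced libraries. All induced values were below the controls, as they were for 34.5% of genes tested, and the change did not pass the test (log2 fold change -0.11, 95% interval -0.22 to 0.00, edgeR adjusted p 0.0848). It passed 0.05 under library totals alone (adjusted p 0.0234) and without induced replicate 1 (0.0480). Nfkb2 encodes p100, which both yields p52 and acts as an IκB for RelB (ENSMUSG00000025225, chromosome 19, 46304737 to 46312090, plus strand). It had 132.2, 139.6 and 142.8 CPM in control libraries and 119.8, 114 and 112.9 CPM in induced libraries. The groups did not overlap, and the log2 fold change of -0.26 (SE 0.05, edgeR adjusted p 0.000246) was the largest fall among the subunits. In GENCODE M21, 18.1% of the exon bases of Nfkb2 are shared with Psd or another gene of the opposite strand. That gene model is not the counted one, with 4584 exon bases against a deposited length of 3289. In the deposited coordinates Nfkb2 ends at 46312090 and Psd begins at 46312087, so that they meet only at their ends. Psd, which encodes an exchange factor for ARF6, rose from 18.2 to 31.7 CPM. The library kit as named does not mark strand, and sharing of reads with genes of the opposite strand was not tested.

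**Figure D2:**
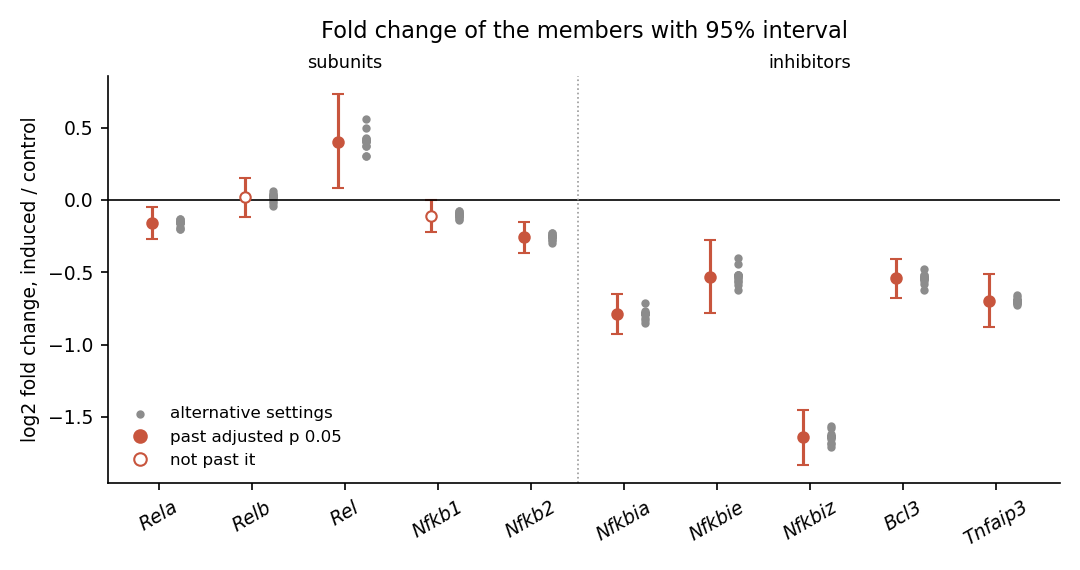
Log2 fold change of induced over control cells for the 10 genes (vertical axis), as point and 95% interval from the edgeR fit, filled where the adjusted p was below 0.05. Grey points are the values under the alternative settings, leave-one-out fits included. Nfkbiz lies at -1.64, the other inhibitors lie between -0.79 and -0.53, and the subunits lie between -0.26 and 0.40.

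Genes of the NF-kB system are known for κB sites in their own promoters, and the promoter sequences of the members were searched for them. RefSeq promoter windows of 300 bases (250 before and 50 after the start, GRCm38.p6) were found for 7 of the 10 members, and Nfkb1, Relb and Nfkbiz had no entry. An exact match of 10 bases to the κB consensus, searched on both strands, was present in at least 1 window of 6 of these 7 genes, and Rela had none. Counted by window, 8 of the 10 windows of these genes held a match. Of all 32851 windows 4.51% held a match, and of the windows of tested genes 5.32%. A match is a run of letters and does not show that a factor binds there. The stretches that hold it are shown for the 4 inhibitors with a window and for Rel, the only member called higher. Each runs 5′ to 3′ on the strand of the gene, with the matches in capitals.
Nfkbia (chr12:55492648-55492797, minus strand): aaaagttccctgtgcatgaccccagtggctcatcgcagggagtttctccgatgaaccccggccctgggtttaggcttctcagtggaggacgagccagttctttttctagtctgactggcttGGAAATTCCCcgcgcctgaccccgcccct
Nfkbie (chr17:45555550-45555699, plus strand): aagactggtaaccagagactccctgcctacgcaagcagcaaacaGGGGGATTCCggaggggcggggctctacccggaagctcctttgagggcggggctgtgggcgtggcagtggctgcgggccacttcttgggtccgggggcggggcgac
Tnfaip3 (chr10:19015411-19015560, minus strand): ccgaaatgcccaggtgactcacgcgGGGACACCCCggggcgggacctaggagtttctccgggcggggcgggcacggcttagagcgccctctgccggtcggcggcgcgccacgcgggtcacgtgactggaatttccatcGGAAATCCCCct
Bcl3 (chr7:19822744-19822893, minus strand): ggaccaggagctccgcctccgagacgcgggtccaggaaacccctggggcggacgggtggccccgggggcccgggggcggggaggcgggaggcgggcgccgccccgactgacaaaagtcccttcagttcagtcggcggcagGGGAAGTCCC
Rel (chr11:23770970-23771119, minus strand): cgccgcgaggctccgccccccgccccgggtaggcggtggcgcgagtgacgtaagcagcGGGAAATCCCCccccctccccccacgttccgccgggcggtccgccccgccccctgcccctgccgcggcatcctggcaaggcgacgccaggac

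The match of Nfkbia begins 29 bases upstream of the start and that of Nfkbie 106 bases upstream, both outside any annotated exon. Tnfaip3 has matches that begin 125 and 12 bases upstream of this RefSeq start, which lie in an intron of a transcript that starts further upstream, and none at its other start. The match of Bcl3 lies in the first exon, 3 to 12 bases into the transcript. In Rel, overlapping matches begin 92 and 91 bases upstream of the start. More windows were searched for Nfkb2 than for any other member, so that its number of matches is not comparable with theirs. All matches of Nfkb2 lie in annotated exons, of Nfkb2 itself or of AC114539.1, a gene of the opposite strand. The gene with most matches was Nfkb2, with GGGAATTCCC (chr19:46304698-46304707), overlapped by a further match shifted by 1 base, and GGGGCTTTCC (chr19:46304726-46304735) before its first start, GGAATGTCCC (chr19:46305459-46305468) before its second and GGGACTTTCC (chr19:46305705-46305714) after it.

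**Figure D3:**
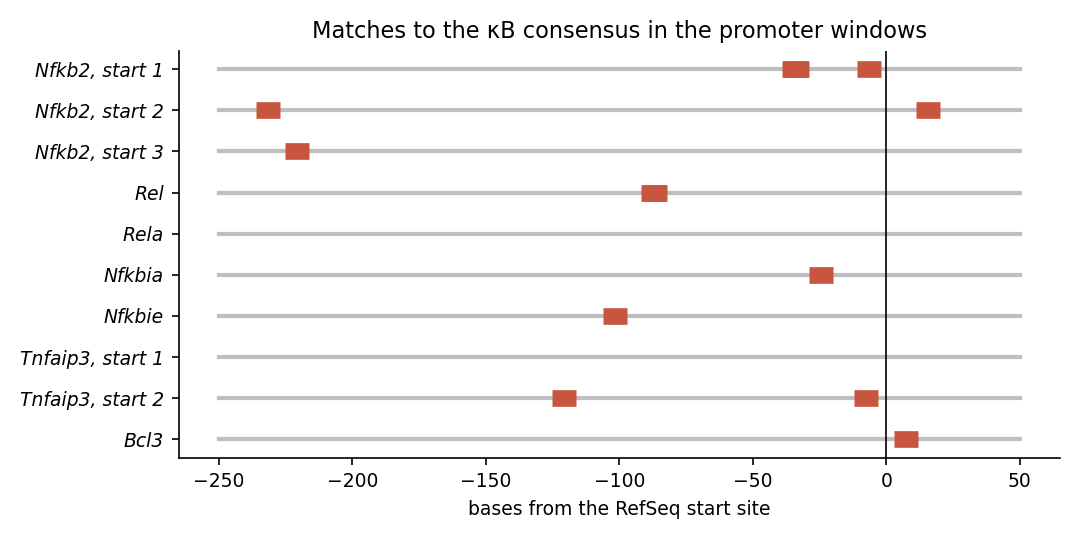
Positions of exact matches to the κB consensus (red) in the RefSeq promoter windows (grey) of 7 members, in bases from the start site; genes with several windows have a row each. Matches lie within 40 bases of the start in Nfkb2, Nfkbia, Tnfaip3 and Bcl3, and Rela has none.

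Levels were compared between genes only per length, in FPKM as deposited. These rest on the deposited gene lengths, and which transcripts the cells made was not examined. Nfkb1 was counted over 12061 bases and Relb over 3885 bases. In control cells Nfkb1 had 84.7 CPM and Relb 39.9 CPM, so that their order by FPKM is the reverse of that by CPM. Rela was the most abundant member in both groups, with 59.9 ± 2.42 FPKM in control and 54.0 ± 2.60 FPKM in induced cells (SD, n = 3). In control cells it was followed by Nfkb2 (41.6 FPKM), Nfkbia (31.7 FPKM), Bcl3 (23.3 FPKM), Relb (10.2 FPKM), Nfkbiz (7.49 FPKM), Nfkb1 (6.95 FPKM), Nfkbie (5.18 FPKM), Tnfaip3 (2.52 FPKM) and Rel (0.743 FPKM). Only the neighbours Nfkbiz and Nfkb1 overlapped between their libraries in this order. In induced cells Nfkbiz dropped from rank 6 to rank 8, at 2.42 FPKM, below Nfkb1 (6.51 FPKM) and Nfkbie (3.62 FPKM), and the libraries of Nfkbia (18.5 ± 1.76 FPKM) and Bcl3 (16.1 ± 1.51 FPKM) overlapped.

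The make-up of the subunit transcripts was read as the share of each in their summed level. The shares rest on the same deposited gene lengths. That sum was 119.4 ± 2.35 FPKM in control and 107 ± 4.66 FPKM in induced cells (SD, n = 3). Rela made up 50.2% ± 1.39 of this sum in control and 50.5% ± 0.283 in induced cells, and Nfkb2 34.9% ± 1.47 and 32.8% ± 0.402. The share of Relb was 8.52% ± 0.0774 against 9.70% ± 0.299, that of Nfkb1 5.82% ± 0.110 against 6.09% ± 0.0600, and that of Rel 0.624% ± 0.129 against 0.929% ± 0.143. The shares of Relb, Nfkb1 and Rel were higher in every induced library than in every control library, while those of Rela and Nfkb2 overlapped. How often other genes would show this as a share was not counted. By level, groups did not overlap for 68.6% of genes tested, in either direction. Because the sum was lower in induced cells, a share can be higher without a higher level of its gene. Relb differed by only 0.02 on the log2 scale, and Nfkb1 was itself lower in every induced library. The shares are a description without a test.

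The ratio of an inhibitor to Rela within a library does not depend on how libraries are scaled. For Nfkbia it was 0.525, 0.559 and 0.505 in control libraries and 0.352, 0.318 and 0.355 in induced libraries, in FPKM per FPKM of Rela. The ratio of Nfkbiz was 0.124, 0.118 and 0.133 in control libraries and 0.0449 ± 0.00462 over the induced libraries. Bcl3 had a mean ratio of 0.389 ± 0.0104 in control and 0.297 ± 0.0139 in induced cells, Nfkbie of 0.0863 ± 0.00579 and 0.0670 ± 0.0103, and Tnfaip3 of 0.0422 ± 0.00343 and 0.0291 ± 0.00112 (SD, n = 3). For all 5 inhibitors every induced library had a lower ratio than every control library, which held for 22.3% of 14245 other genes tested.

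**Figure D4:**
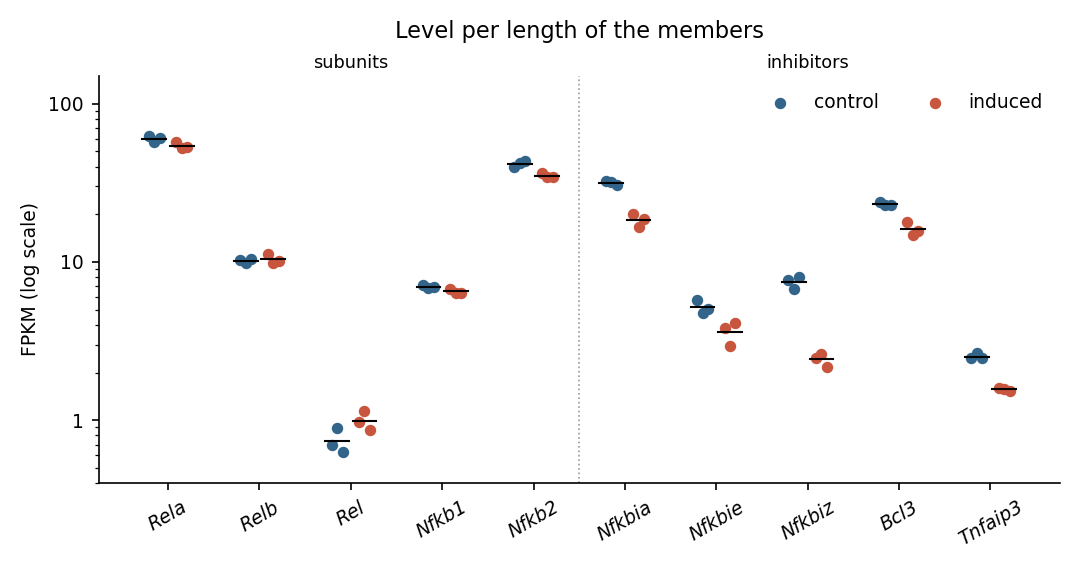
Level per length of each member in each library, in FPKM on a log scale, blue for control and red for induced; black lines are means of 3 libraries. Rela and Nfkb2 are highest in both groups and Rel is lowest, at about 1 FPKM.

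The ligands and receptors that feed the pathway were read from lists of the same fit. The counts of this and the following lists are to be read beside all genes tested, of which 64.8% were called, 32.2% lower and 32.6% higher. Of 18 ligands and related genes, 7 were tested, 2 higher and 3 lower, with a median log2 fold change of 0.00. Tnf, the classical inducer, had 0 reads in all 6 libraries, and Il1b had 1 read in control and 0 reads in induced cells, so that this depth shows no difference between the groups for either. Il33, an alarmin of the interleukin-1 family, had 28.4, 29.3 and 30.9 CPM in control and 13.7, 15.6 and 13.9 CPM in induced libraries (log2 difference -1.04, edgeR adjusted p 2.47e-09). Il1rn, which encodes the interleukin-1 receptor antagonist and so opposes the ligands of its list, fell from 3.73 ± 0.727 to 0.563 ± 0.242 CPM as mean ± SD (n = 3; log2 difference -2.71, edgeR adjusted p 2.69e-07).

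Of 24 receptors, 17 were tested, 8 higher and 4 lower, with a median of 0.18. Il1r1, the signaling receptor for interleukin-1, had 87.5, 79.2 and 79.5 CPM in control and 32.5, 32.2 and 29.0 CPM in induced libraries, which put every induced library far below the lowest control (log2 difference -1.39, edgeR adjusted p 7.91e-13). Tnfrsf1a, the main receptor for tumor necrosis factor, was lower by 0.23 on the log2 scale (365.7 ± 4.12 and 312.5 ± 9.91 CPM; edgeR adjusted p 0.000211). Tnfrsf12a, the receptor for the ligand TWEAK, rose from 119.3 ± 2.94 to 210 ± 19.8 CPM as mean ± SD (n = 3; log2 difference 0.82, edgeR adjusted p 1.19e-09). Ltbr, a receptor of the noncanonical branch, had 188.1 ± 4.84 and 182.6 ± 10.5 CPM and did not pass the test (edgeR adjusted p 0.478). Tlr4, the receptor for lipopolysaccharide, was higher by 0.18 (edgeR adjusted p 0.0280), a call lost in DESeq2 (0.0665), when scaled by totals only (0.0819), and on leaving out control replicate 1 (0.0963), control replicate 3 (0.0852) or induced replicate 3 (0.111).

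Of 31 kinases and adaptors, 30 were tested, 7 higher and 9 lower, with a median of -0.02. In the IκB kinase, the catalytic subunit Ikbkb had 46.9 ± 2.08 and 46.4 ± 2.42 CPM (log2 difference -0.02, 95% interval -0.14 to 0.11, edgeR adjusted p 0.815), and the scaffold Ikbkg had 70.2 ± 2.06 and 71.2 ± 3.17 CPM (0.02, interval -0.09 to 0.14, edgeR adjusted p 0.745). Chuk, which encodes IKKα, was higher by 0.21 on the log2 scale with overlapping groups (edgeR adjusted p 0.0158), and lost the call without control replicate 1 (0.0794) or induced replicate 3 (0.0660). Map3k14, the kinase NIK that drives the noncanonical branch, had 33.4, 31.0 and 28.2 CPM in control and 18.4, 17.0 and 17.7 CPM in induced libraries (log2 difference -0.80, edgeR adjusted p 7.62e-08). Ripk2, the kinase downstream of the NOD receptors, fell from 26.2 ± 1.51 to 15.1 ± 0.289 CPM (log2 difference -0.79, edgeR adjusted p 7.35e-08).

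Of 21 other inhibitors and deubiquitinases, 20 were tested, 6 higher and 4 lower, with a median of -0.05. Named after their values were seen, the 4 lower genes were Nfkbid (-1.29, with 54 reads in control and 21 in induced cells), Zc3h12a (-0.64), Commd1 (-0.41) and Otulin (-0.25). A fall was thus not confined to the members. Nfkbib, which encodes IκBβ, a further cytoplasmic IκB, had 26.5, 27.1 and 26.7 CPM in control and 31.6, 27.2 and 27.2 CPM in induced libraries and did not pass the test (log2 difference 0.10, edgeR adjusted p 0.253). Cyld, a deubiquitinase that restrains the pathway, was higher by 0.19 (edgeR adjusted p 0.00586), and the A20 partner Tnip1 had 102.6 ± 3.05 and 107.2 ± 5.07 CPM (edgeR adjusted p 0.322). The smallest p belonged to Nlrc5, which rose from 2.39 ± 0.185 to 10.7 ± 1.46 CPM (log2 difference 2.15, edgeR adjusted p 7.37e-10) and is better known as a transactivator of MHC class I genes, and to Sqstm1, the autophagy receptor p62, which rose from 550.3 ± 9.82 to 819.5 ± 34.4 CPM (log2 difference 0.57, edgeR adjusted p 1.76e-09).

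Of 42 genes known as NF-kB targets, 34 were tested, 16 higher and 14 lower, with a median of 0.00 and a range from -8.09 to 3.10. Of the 8 chemokines on the list, 6 were tested. The neutrophil chemokine Cxcl5 fell from 169.9 ± 7.85 to 0.616 ± 0.241 CPM (log2 difference -8.09, edgeR adjusted p 4.54e-19), and the monocyte chemokine Ccl2 fell from 124.9 ± 4.42 to 49.5 ± 3.76 CPM (-1.33, adjusted p 9.84e-13). Chosen after their values were seen, the other tested chemokines were Cxcl1 (-3.09) and Ccl7 (-1.21), both lower, and Cxcl10 (3.10) and Ccl5 (1.37), both higher. Saa3, an acute phase protein, had 2252, 2000 and 2227 CPM in control and 508, 421.2 and 557.5 CPM in induced libraries (log2 difference -2.12, edgeR adjusted p 2.91e-14). The adhesion molecules went apart, with Vcam1 lower (651.5 ± 14.7 and 321.9 ± 9.55 CPM; log2 difference -1.02, edgeR adjusted p 5.00e-13) and Icam1 higher (56.7 ± 3.25 and 71.9 ± 3.39 CPM; log2 difference 0.34, edgeR adjusted p 5.00e-05). Lif, a cytokine of the interleukin-6 family, rose from 20.4 ± 0.720 to 78.9 ± 2.83 CPM as mean ± SD (n = 3; log2 difference 1.95, edgeR adjusted p 2.92e-15). Sod2, the mitochondrial superoxide dismutase, was lower by 0.21 (edgeR adjusted p 0.00156). Il6, at 3.96 ± 0.425 and 3.09 ± 0.648 CPM, did not pass the test (edgeR adjusted p 0.112). Lcn2, mentioned with Il6 above and added after its values were seen, fell from 10.9 ± 0.299 to 5.57 ± 0.320 CPM (log2 difference -0.97, edgeR adjusted p 8.11e-07). A link of either gene to Nfkbiz was not tested. Cd44 was on this list and on that of the cardiosphere markers.

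**Figure D5:**
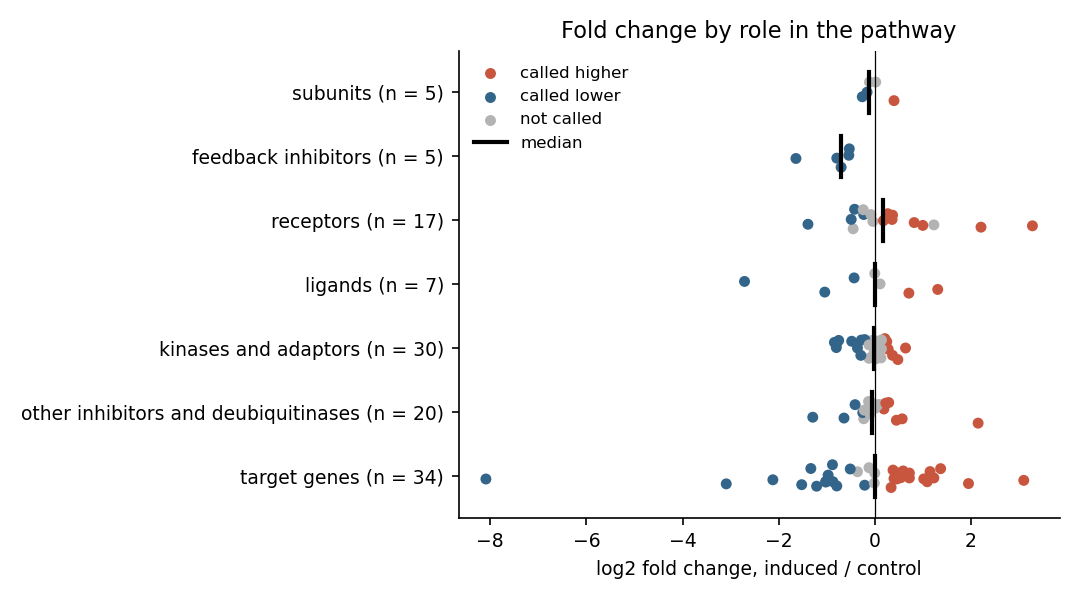
Log2 fold change of induced over control cells (horizontal axis) for the tested genes of each role in the pathway; points are genes, red for called higher, blue for called lower and grey for not called, and black bars are medians. The feedback inhibitors lie at a median of -0.70, the other groups between -0.11 and 0.18, and the target genes spread from -8.09 to 3.10.

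Genes with the most similar pattern over the 6 libraries were sought by the root-mean-square difference of log2 CPM, each gene centred on its control mean. For Nfkbiz, the member with the largest fall, the nearest were Mme (0.063), Frat2 (0.071) and Ydjc (0.071), at log2 fold changes of -1.64, -1.60 and -1.61. For Rel, the member with the largest rise, the nearest were Plpp6 (0.069), Ppp1r3e (0.082) and Zc2hc1c (0.086), at 0.35, 0.47 and 0.49, of which Zc2hc1c did not pass the test (edgeR adjusted p 0.0981) and Plpp6 lost its call without control replicate 3 (0.0988) or induced replicate 2 (0.0625). These are the nearest of 14246 genes and the likeness carries no test.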

How the data were processed

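RNA of the 6 libraries was sequenced by the authors after library preparation with the NEBNext Ultra kit. The authors deposited raw read counts per gene, which are whole numbers without normalization, beside FPKM values and the gene length in bases. Per the labels, their processing notes name HISAT2 2.0.5, featureCounts 1.5.0-p3, DESeq2 1.16.1 and mm10, whereas the methods of the study name DESeq; annotation and strand setting are not given in the sources used here. In each library the deposited FPKM equal the count divided by the gene length and by 1 depth (within 0.1% for all 9963 genes with at least 100 reads in every library). The deposited fold changes, p-values and Gene Ontology tables hold the authors' own comparisons and were not used.

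The reanalysis used edgeR 4.0.16 (R 4.3.3). The filter filterByExpr asked for a count of 10 and a total of 15 per gene and kept 14246 genes, which hold 99.9% of all reads. After TMM scaling, the quasi-likelihood test compared induced with control cells, two-sided, and Benjamini-Hochberg adjustment ran over every tested gene with a threshold of 0.05. Levels are TMM-scaled CPM (mean ± SD), and the fit added a prior count of 0.125. Each standard error was derived from the log2 difference and the F value of its test. No library was dropped or imputed in this fit.

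The members, gene lists and named genes were chosen with earlier results of these data known. Named genes are the 10 members, 20 genes of the lists picked by name, and the 2 tested genes per list with the smallest p. Further list genes are named where the text says that their values had been seen. The 3 nearest genes in pattern to the members with the largest rise and fall were named as well. The settings varied were the tool (DESeq2 1.42.0), the scaling (size factors by median ratio, or totals only), the filter (none, or a mean count of 10 together with 1 CPM in 3 libraries), the replicate number as a block, the threshold (0.01) and the set of libraries, each one omitted in turn. On simulated counts for 14036 genes of this comparison, 100% of changes of 1 and 90% of changes of 0.5 on the log2 scale were recovered. There were 12 false calls among 13836 unchanged genes. The simulation changed only 200 genes, none of them among those of lowest level, whereas 9225 genes were called in the data. Pairs of libraries within a group differed by more than sampling noise (chi-square per degree of freedom 2.56 to 8.91), and none was merged.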

Additional observations from a re-analysis of the deposited data

How the results depend on the processing

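All 5 inhibitors were called lower under every alternative run, with log2 fold changes of -1.71 to -1.56 for Nfkbiz, -0.85 to -0.71 for Nfkbia, -0.73 to -0.66 for Tnfaip3, -0.62 to -0.48 for Bcl3 and -0.62 to -0.40 for Nfkbie. The subunits were less stable, and of the 10 members 6 to 9 were called. Of the members, 0 were called higher in DESeq2 or at an adjusted p of 0.01. At 0.01, 1 subunit (Nfkb2) was called, and it was lower. With each library omitted in turn, 1 to 3 subunits were called, 1 to 3 lower and 0 to 1 higher, and 0 to 1 members were called higher. Relb reversed to -0.02 under library totals alone, -0.01 without control replicate 2 and -0.04 without induced replicate 1, in a range of -0.04 to 0.06 with single libraries left out. Ikbkb reversed to 0.02 without control replicate 3 and 0.03 without induced replicate 3 (range -0.05 to 0.03), and Ikbkg to -0.02 under library totals alone and -0.01 without induced replicate 2 (range -0.01 to 0.05). None of these reached the threshold in either direction, and the cause was not tested. Il6 (-0.53) passed 0.05 without induced replicate 3 and Tnip1 (0.11) without induced replicate 2. The number of all genes called lay between 7783 and 9765, against 9225. Pairing by replicate number was not seen, with correlations of same-numbered deviations of -0.002, -0.015 and 0.027, and with the replicate block 8 members and 9063 genes were called. At this depth 11 of 18 ligands, 7 of 24 receptors and 8 of 42 targets could not be tested.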
